A study of Mus musculus with 12 samples.

Results

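The mRNA of 10 genes of major histocompatibility complex (MHC) class I and antigen processing was followed in mouse hippocampus and in cultured hippocampal neurons that had received a virus against Brpf1. The genes were H2-K1, H2-D1, B2m, Tap1, Tap2, Tapbp, Psmb8, Psmb9, Nlrc5 and Cd74, picked by name for their place in the pathway. Earlier results of these data were known when they were picked. Their symbols were matched to NCBI gene IDs, and all 10 were found among the 27179 IDs of every count table. RNA was sequenced from 12 libraries in 4 groups of 3, all from C57BL/6 mice. CA1 shBrpf1 was hippocampal CA1 tissue injected with AAV2-shBrpf1-GFP, and CA1 scramble was the same tissue injected with AAV2-scramble-GFP. The CA1 mice were injected at 4 weeks and labelled as 8 weeks after birth. Neurons shBrpf1 and neurons scramble were primary hippocampal cultures infected with the same viruses at day 3 in vitro. The labels place the cultures at embryonic day 18 to 19 in the stage field and at E14.5 in the growth protocol, and the study's methods give late embryos. In those methods this is the age of the embryos used, and experiments on cultured neurons came well after infection, later in culture. Every group thus carried AAV2 and GFP. The study's methods can be read as shBrpf1 virus in the right and scramble virus in the left hemisphere, while its behaviour and qPCR experiments list separate mice for each virus. If the first holds for the sequenced CA1 tissue, virus and side cannot be told apart. Whole pieces of tissue and whole cultures were sequenced, not sorted infected cells. The labels do not say whether libraries of a group came from separate animals or cultures, and the study speaks of pairs of CA1 tissues and of RNA batches of the cultures without tying libraries to animals, so p-values measure the spread between these libraries, which may be technical in part.

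MHC class I molecules show peptides from inside the cell at its surface. The heavy chain (H2-K1 and H2-D1 in these mice) pairs with B2m, peptides are cut by the proteasome, for which Psmb8 and Psmb9 are the interferon-inducible catalytic subunits, and the Tap1 and Tap2 transporter moves them into the endoplasmic reticulum, where tapasin (Tapbp) helps to load them. Nlrc5 is a transactivator of class I genes, while Cd74, the invariant chain, belongs to MHC class II and marks cells such as dendritic cells, B cells and activated macrophages. In the healthy brain class I is low in most cells, and it is known to rise with interferon.

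Sequences just before the starts of the heavy chain genes, of B2m and of the Tap1 and Psmb9 pair are shown because the 10 genes varied together from library to library, as described further on. They are from RefSeq (GRCm38.p6), in which 7 of the 10 genes matched an entry, while the labels give mm9 as the build of the counts. For H2-K1, RefSeq lists more than a single start, and the window belongs to one of them. Each is written 5′ to 3′ in the direction of the gene. Capitals mark TGACG (the core of a cyclic AMP response element), CCAAT or its complement ATTGG, and the interferon element in the forms GAAANNGAAA or GAAGTGAAA (complement TTTCACTTC). They also mark the κB letters GGGGATTCCCC.
H2-K1, chr17:34000348-34000527, reverse strand: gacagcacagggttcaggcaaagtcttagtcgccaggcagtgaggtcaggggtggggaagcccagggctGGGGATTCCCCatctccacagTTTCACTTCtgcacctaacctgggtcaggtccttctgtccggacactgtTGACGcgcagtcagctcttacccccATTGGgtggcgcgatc
H2-D1, chr17:35262914-35263093, forward strand: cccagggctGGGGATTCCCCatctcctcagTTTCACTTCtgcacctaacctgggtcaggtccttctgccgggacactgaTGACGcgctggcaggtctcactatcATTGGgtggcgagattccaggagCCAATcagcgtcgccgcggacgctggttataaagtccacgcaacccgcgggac
B2m, chr2:122147507-122147686, forward strand: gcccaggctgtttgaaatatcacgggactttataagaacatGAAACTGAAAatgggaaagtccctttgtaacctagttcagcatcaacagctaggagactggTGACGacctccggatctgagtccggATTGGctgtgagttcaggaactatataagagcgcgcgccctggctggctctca
Tap1 and Psmb9, all 225 bases between their starts, chr17:34187331-34187555, forward strand (towards Tap1): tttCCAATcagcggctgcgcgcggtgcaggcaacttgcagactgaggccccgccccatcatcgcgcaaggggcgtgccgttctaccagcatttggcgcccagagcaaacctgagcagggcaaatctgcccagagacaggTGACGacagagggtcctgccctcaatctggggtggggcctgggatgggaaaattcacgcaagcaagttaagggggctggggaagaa

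H2-K1, H2-D1 and B2m each held TGACG followed, after 20 bases, by ATTGG. That spacing was found in 26 of 27025 RefSeq promoters of 300 bases (0.0962%), and any spacing of 15 to 30 bases in 166 (0.614%). Of the 10 genes, 7 had an entry and 3 held the arrangement. Tap1, Tapbp, Psmb8 and Psmb9 did not hold it at 15 to 30 bases, nor the interferon element or κB letters marked above. Among 71 other genes of the pathway lists with an entry, 4 held the arrangement at 15 to 30 bases. On either strand TGACG alone was in 21% of the promoters, CCAAT in 37.9%, GAAANNGAAA in 3.49%, GAAGTGAAA in 0.522% and GGGGATTCCCC in 0.0222%. The 250 bases before the starts of H2-K1 and H2-D1, longer than the windows shown, were near copies of each other. At a shift of 60 bases, 166 of 190 aligned bases were identical (87.4%). Tap1 and Psmb9 start from the same short interval in opposite directions and so share their letters. The Psmb8 promoter held TTCCCAGAA, a match to the interferon-gamma activated site letters TTCNNNGAA, which 8.47% of promoters hold. The motifs and spacings were chosen after these sequences were seen, and a match is a description of letters, not of a bound site.

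Depth was 18330618 to 30275304 counts per library, with a median of 24746880. Brpf1, the targeted gene and a chromatin reader of histone acetyltransferase complexes, had 28.6, 36.7 and 28.4 CPM (counts scaled to a common library size after TMM normalisation) in CA1 shBrpf1, against 40.1, 46.3 and 35.9 CPM in CA1 scramble. Its log2 fold change there was -0.38 (standard error, SE, 0.18) with an edgeR p of 0.0719, adjusted p = 0.934. In neurons Brpf1 had 27.1, 49.7 and 32.6 CPM with shBrpf1 and 23.6, 52.0 and 38.5 CPM with scramble, so a lower level was not seen in these culture libraries (log2 fold change -0.06, SE 0.36). By RT-qPCR the study did report lower Brpf1 mRNA in its cultures and in injected hippocampus, without tying those samples to these libraries. The 524 genes of chromosome 13 with at least 10 counts in all 6 neuron libraries were at 0 in all 6 CA1 tables, and none of the 10 genes lies there. One label field calls all 12 samples neural progenitor cells, against their titles. The progenitor list summed to 73.2 to 83.9 CPM in CA1 scramble and 252 to 834 CPM in neurons scramble, and the list of neuron genes to 4636 to 7028 CPM in CA1 and 1762 to 5093 CPM in cultures. Astrocyte genes summed to 3304 to 7741 CPM in the cultures, so these were mixed cultures by their RNA.

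Among the 10 genes B2m had the highest level per length in every group. It averaged 203 ± 87.0 FPKM (CPM per kilobase of gene length, mean ± SD, n = 3 in every group) in CA1 shBrpf1 and 210.0 ± 128 FPKM in CA1 scramble, and 67.6 ± 43.3 FPKM in neurons shBrpf1 and 84.9 ± 53.1 FPKM in neurons scramble. The heavy chains followed, at mean FPKM of 53.6 (H2-K1) and 58.9 (H2-D1) in CA1 shBrpf1. In every CA1 library H2-K1 and H2-D1 together reached less than B2m per length, with ratios of 0.461 to 0.617 in CA1 shBrpf1 and 0.426 to 0.588 in CA1 scramble, and 0.338 to 0.470 in neurons shBrpf1 and 0.276 to 0.759 in neurons scramble. Tapbp, Psmb8 and Psmb9 lay between 5.86 and 14.7 mean FPKM in the CA1 groups. Nlrc5 was low in all groups (0.532 to 1.04 mean FPKM).

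B2m (chromosome 2) had 134, 261 and 129 CPM in CA1 shBrpf1, against 303, 146 and 91.6 CPM in CA1 scramble. H2-K1 (chromosome 17) had 52.5, 153 and 58.8 CPM in CA1 shBrpf1, against 168, 75.3 and 38.1 CPM in CA1 scramble. H2-D1 (chromosome 17) gave 69.5, 164 and 73.7 CPM in CA1 shBrpf1, against 184, 88.1 and 38.9 CPM in CA1 scramble. For all 3 genes the highest CA1 library was scramble replicate 1, the next shBrpf1 replicate 2 and the lowest scramble replicate 3, so the groups overlapped fully. In whole tissue, fewer cells of a type and less RNA per cell cannot be told apart. The log2 fold changes from edgeR were -0.03 for B2m (SE 0.45, 95% interval -1.07 to 1.01), -0.06 for H2-K1 (SE 0.61, -1.51 to 1.38) and 0.00 for H2-D1 (SE 0.58, -1.36 to 1.36). The intervals leave room for a change of about 1 log2 unit either way.

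The same genes were lower in culture. B2m had 43.3, 100.2 and 30.4 CPM in neurons shBrpf1, against 62.0, 123 and 33.6 CPM in neurons scramble. H2-K1 had 12.02, 34.9 and 12.3 CPM in neurons shBrpf1, against 46.6, 53.5 and 5.86 CPM in neurons scramble. H2-D1 gave 17.0, 41.5 and 16.0 CPM in neurons shBrpf1, against 46.2, 46.0 and 12.6 CPM in neurons scramble. Replicate 2 of each group was at or near the top for all 3 and scramble replicate 3 at or near the bottom, and again the groups overlapped. Reads of H2-K1 and H2-D1 are hard to separate from other heavy chains, since 9.63% and 12.8% of their 50-base words also occur in transcripts of other genes, so their single levels are uncertain. None of the B2m words did.

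**Figure D1:**
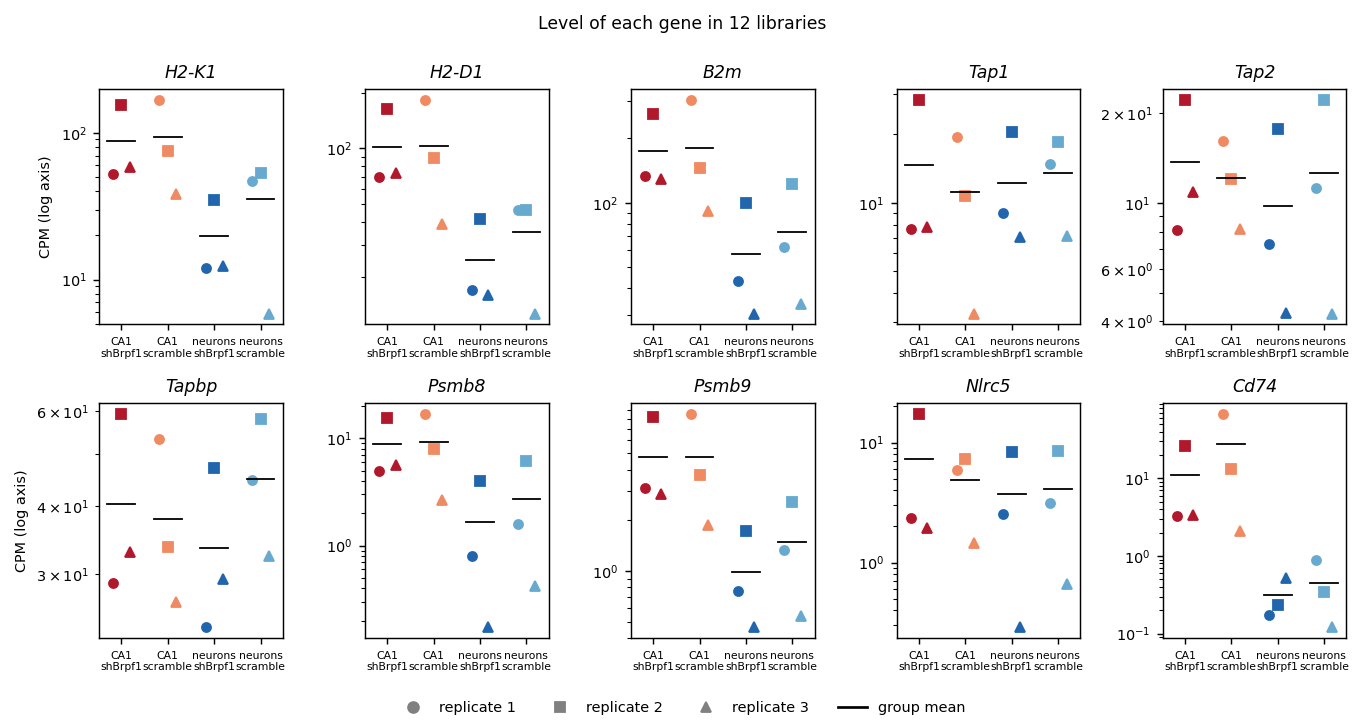
Level of each of the 10 genes in every library as CPM on log axes, with CA1 shBrpf1, CA1 scramble, neurons shBrpf1 and neurons scramble from left to right, marker shape for replicate number and a bar for the group mean. B2m spans 91.6 to 303 CPM in CA1, and in each gene the shBrpf1 points lie within or across the range of the scramble points.

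Tap1 (chromosome 17), 1 of the 2 chains of the peptide transporter, had 7.64, 28.4 and 7.87 CPM in CA1 shBrpf1, against 19.4, 10.7 and 3.26 CPM in CA1 scramble. Tap2 (chromosome 17), the partner chain, had 8.11, 22.04 and 10.9 CPM in CA1 shBrpf1, against 16.1, 11.997 and 8.17 CPM in CA1 scramble. Tapbp (chromosome 17) gave 28.9, 59.3 and 32.9 CPM in CA1 shBrpf1, against 53.3, 33.7 and 26.7 CPM in CA1 scramble. The highest library for all 3 was shBrpf1 replicate 2, followed by scramble replicate 1. Log2 fold changes were 0.42 for Tap1 (SE 0.74), 0.19 for Tap2 (SE 0.40) and 0.11 for Tapbp (SE 0.34). Tapbp was the least variable of the 10, with 2.22 times between its highest and lowest CA1 library, and its interval ran from -0.67 to 0.89.

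In culture, Tap1 had 9.04, 20.6 and 7.09 CPM in neurons shBrpf1, against 14.8, 18.5 and 7.18 CPM in neurons scramble. Tap2 gave 7.27, 17.6 and 4.27 CPM in neurons shBrpf1, against 11.2, 22.1 and 4.25 CPM in neurons scramble. Tapbp had 23.9, 47.2 and 29.3 CPM in neurons shBrpf1, against 44.7, 57.9 and 32.4 CPM in neurons scramble. Unlike the heavy chains, these 3 genes were at similar levels in the CA1 and culture groups, with means of 9.72 to 14.6 CPM for Tap1 and Tap2 and 33.5 to 45.0 CPM for Tapbp. Tap1 and Psmb9 share an interval and 3.33% and 4.19% of their 50-base words with each other or other genes, and whether counting used strand is not stated, so counts near their starts are uncertain. For Tap2, Tapbp and Psmb8 the shared words were 11.6%, 23.2% and 11.9%, so their levels carry the same uncertainty.

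Psmb8 (chromosome 17) had 5.00, 15.6 and 5.70 CPM in CA1 shBrpf1, against 17.0, 7.95 and 2.67 CPM in CA1 scramble. Psmb9 (chromosome 17) had 3.11, 8.21 and 2.87 CPM in CA1 shBrpf1, against 8.59, 3.70 and 1.88 CPM in CA1 scramble. The fold changes were close to 0, at -0.04 log2 units for Psmb8 (SE 0.68) and 0.03 for Psmb9 (SE 0.60). In neurons Psmb8 gave 0.797, 4.02 and 0.173 CPM with shBrpf1 and 1.60, 6.09 and 0.419 CPM with scramble. Psmb9 was at 0.762, 1.72 and 0.461 CPM in neurons shBrpf1, against 1.33, 2.58 and 0.539 CPM in neurons scramble. Psmb8 thus spanned 35.2 times across the 6 culture libraries, on counts as low as 3 in shBrpf1 replicate 3. Set per length against Psmb5, the constitutive subunit whose place it takes, Psmb8 was at 0.0405 to 0.177 in CA1 shBrpf1 and 0.0171 to 0.0880 in CA1 scramble, and at 0.00180 to 0.0467 in neurons shBrpf1 and 0.00437 to 0.0659 in neurons scramble. Psmb9 against Psmb6 gave 0.0429 to 0.177 in CA1 shBrpf1 and 0.0246 to 0.10004 in CA1 scramble, and 0.00569 to 0.0272 in neurons shBrpf1 and 0.00638 to 0.0392 in neurons scramble. The inducible subunits were thus a minority of the mRNA of their kind in every library.

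Nlrc5 (chromosome 8) had 2.37, 17.4 and 1.94 CPM in CA1 shBrpf1, against 5.94, 7.32 and 1.45 CPM in CA1 scramble. A single library, shBrpf1 replicate 2, stood above the other 5. The log2 fold change of 0.59 (SE 0.95, 95% interval -1.65 to 2.83) became -1.19 without that library. In neurons Nlrc5 gave 2.53, 8.27 and 0.288 CPM with shBrpf1 and 3.12, 8.45 and 0.658 CPM with scramble. The replicate numbers differed more than the viruses did, and shBrpf1 was the lower for all 3 numbers.

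Cd74 (chromosome 18) was the most variable of the 10 in CA1. It had 3.28, 26.3 and 3.37 CPM in CA1 shBrpf1, against 68.6, 13.3 and 2.08 CPM in CA1 scramble, a span of 32.9 times. The log2 fold change was -1.31 (SE 1.32, 95% interval -4.48 to 1.86), with an edgeR p of 0.357. Without shBrpf1 replicate 2 it was -3.08, which passed the study's threshold (adjusted p in edgeR = 0.998), and without scramble replicate 1 it was 0.52, so 1 library on either side decided its sign and its call. In neurons Cd74 was near the limit of detection, with 5, 7 and 9 counts in shBrpf1, against 23, 11 and 2 counts in scramble. It did not reach 10 counts in 3 culture libraries and was not tested there.

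None of the 10 genes was called between shBrpf1 and scramble in CA1. At the study's threshold (a change of 1 log2 unit or more in either direction, unadjusted p under 0.05), edgeR called 75 of 16022 genes tested, 0.468%, and no gene at an adjusted p under 0.05. Unadjusted p of the 10 genes ran from 0.357 to 0.996, with none under 0.05, where 1.15% of all genes tested were, and DESeq2 and limma-voom called none of the 10 either. The median log2 fold change was 0.02 over the 10 genes and 0.01 over all genes tested. No gene of the 10 had groups that did not overlap, where 5.28% of all genes tested had. Exact permutation tests on log2 CPM gave p of 0.7 to 1 (two-sided), where 3 against 3 libraries cannot go below 0.1.

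The absence of a call went with a wide spread inside the groups. The within-group SD of log2 CPM in CA1 was 0.52 (Tapbp) to 2.03 (Cd74), against a median of 0.27 over all genes tested, and each of the 10 genes was at or above the 88.8 percentile of that spread. Numbered libraries pointed in opposite directions. All 10 genes were lower in shBrpf1 than in scramble for replicate number 1, with log2 differences of -1.18 for B2m and -4.19 for Cd74, and all 10 were higher in shBrpf1 for numbers 2 and 3. The study's methods speak of pairs of CA1 tissues, but no label says that the numbers mark them, and the CA1 deviations of same-numbered libraries correlated at -0.36, 0.19 and 0.35 across genes.

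In neurons none of the 9 genes tested was called. edgeR called 9 of 16066 genes at the study's threshold, 0.056%, and none at an adjusted p under 0.05, and DESeq2 and limma-voom called none of the 9. All 9 fold changes were below 0, from -0.15 log2 units for Tap1 (SE 0.52) and Nlrc5 (SE 1.21) to -0.85 for H2-K1 (SE 0.81, 95% interval -2.77 to 1.07). None was at an unadjusted p under 0.05, where 0.0747% of all genes tested were, and none had groups that did not overlap, where 1.56% had. Their median was -0.43, against -0.01 over all genes tested, and since the genes vary together this common sign is close to a single observation. For H2-K1 the value without scramble replicate 3 was -1.35 (adjusted p in edgeR = 1.000), past the study's threshold, and in that library H2-K1 was at its lowest. Every p from the exact permutation test was 0.3 or above for the culture libraries.

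In culture the replicate numbers did pair the libraries, with correlations of 0.58, 0.89 and 0.85 between the deviations of same-numbered libraries. The paired differences, shBrpf1 minus scramble in log2 CPM, were -0.51, -0.29 and -0.14 for B2m. They were -0.89, -0.29 and -0.14 for Tapbp and -0.70, -0.55 and -0.45 for Psmb8. With Psmb9 and Nlrc5, 5 genes were lower in shBrpf1 for all 3 numbers, which 13.2% of all genes tested were. The paired differences were taken after 0.5 CPM was added, which makes them smaller for genes at low levels, such as Psmb8 in replicate 3. With the replicate number as a block, edgeR gave -0.33 for B2m (SE 0.11), -0.45 for Tapbp (SE 0.16) and -0.85 for Psmb8 (SE 0.32), all with an adjusted p of 0.847. So 3 of 9 genes were under an unadjusted p of 0.05 and lower, where 1.76% of all genes tested were (4.9% in either direction). None of the 9 reached the study's fold or an adjusted p under 0.05. Since the genes vary together, the 3 are not separate observations. Brpf1 itself was at -0.04 (SE 0.12) in this block fit. H2-K1 was not steady across the pairs, at -1.91, -0.61 and 1.01, and H2-D1 was at -1.42, -0.15 and 0.33.

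**Figure D2:**
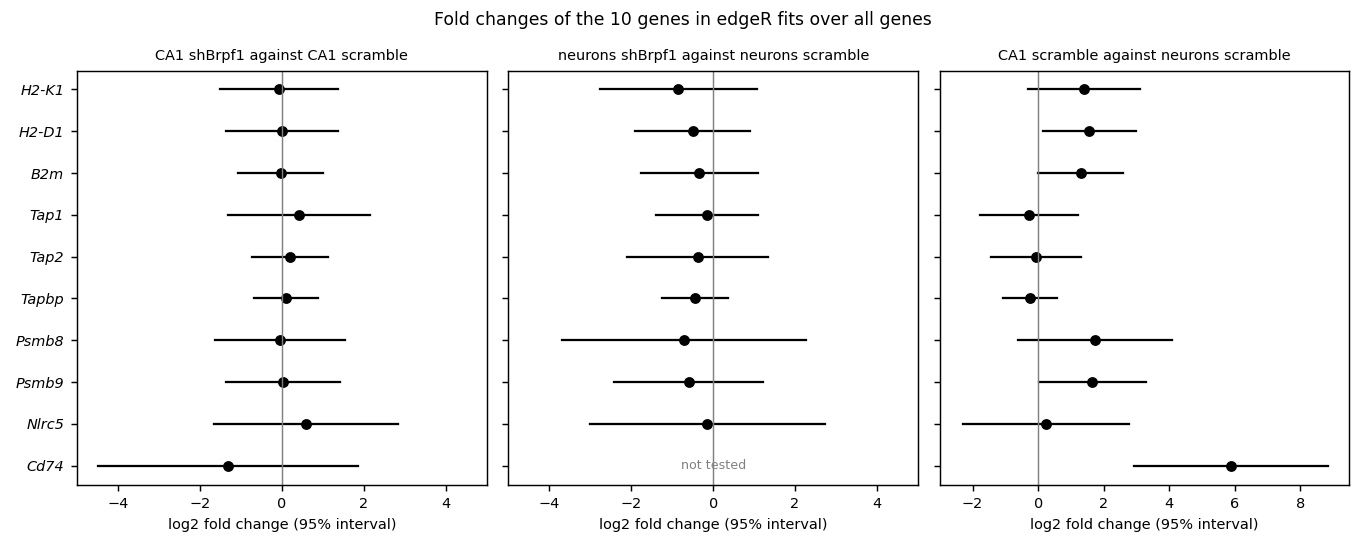
Log2 fold change (point) with its 95% interval (line) from edgeR for each gene, in CA1 shBrpf1 against CA1 scramble, neurons shBrpf1 against neurons scramble, and CA1 scramble against neurons scramble. The intervals of both knockdown comparisons cross 0 for every gene tested, and Cd74 stands at 5.89 in the right panel.

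The difference between the shBrpf1 contrasts of the 2 experiments was tested directly, although Brpf1 itself was not seen lower in the culture libraries sequenced. For 9 genes the CA1 value was above that in neurons, by 0.29 (B2m, SE 0.83) to 0.76 log2 units (H2-K1, SE 1.09), and for Cd74 it was below (-0.67, SE 1.78). No gene was called by edgeR, DESeq2 or limma-voom, where edgeR called 0.301% of 17254 genes at the study's threshold and none after adjustment. The smallest unadjusted p of the 10 genes was 0.336, for Tapbp, and 0.336% of all genes were under 0.05.

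CA1 tissue and cultures were compared without the knockdown virus. In CA1 scramble against neurons scramble, 4 of the 10 genes were higher at the study's threshold, where edgeR called 24.9% of genes tested, 10.9% of them as higher in CA1. Cd74 averaged 28.0 ± 35.6 CPM in CA1 scramble and 0.454 ± 0.400 CPM in neurons scramble, a log2 fold change of 5.89 (SE 1.36, 95% interval 2.92 to 8.86, edgeR adjusted p = 0.00786). It was the single gene of the 10 at an adjusted p under 0.05, where 26.6% of all genes were (11.1% higher in CA1), and the single gene whose groups did not overlap, where 41% did not (19.3% higher in CA1). Its adjusted p ran from 1.53e-05 to 0.085 over the alternatives, the highest with limma-voom, and its fold change was 4.03 without CA1 scramble replicate 1. H2-D1 averaged 104 ± 73.6 CPM in CA1 scramble and 34.9 ± 19.3 CPM in neurons scramble (1.57, SE 0.64, edgeR adjusted p = 0.0934). B2m was at 180.2 ± 109.9 CPM in CA1 scramble and 72.8 ± 45.6 CPM in neurons scramble (1.30, SE 0.59, adjusted p = 0.128), and Psmb9 at 4.72 ± 3.47 and 1.48 ± 1.03 CPM (1.65, SE 0.74, adjusted p = 0.124). These 3 calls were close to the threshold. Only Cd74 was still called without CA1 scramble replicate 1 or without neurons scramble replicate 3. Leaving out CA1 scramble replicate 2, CA1 shBrpf1 replicate 1 or 3, neurons scramble replicate 1 or neurons shBrpf1 replicate 1 left 2 calls.

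H2-K1 and Psmb8 were also higher in CA1 scramble by mean, at 93.7 ± 66.8 against 35.3 ± 25.7 CPM in neurons scramble for H2-K1 (1.41, SE 0.78) and 9.21 ± 7.25 against 2.70 ± 2.99 CPM for Psmb8 (1.74, SE 1.08), and neither passed. Tap1, Tap2 and Tapbp gave -0.28 (SE 0.69), -0.06 (SE 0.63) and -0.25 (SE 0.37), and Nlrc5 gave 0.25 (SE 1.16). In order of mean CPM, CA1 scramble came before CA1 shBrpf1 and both before the culture groups for H2-K1, H2-D1, B2m, Psmb8 and Cd74, yet the CA1 means differed by less than the larger of their SDs for all 10 genes. The 2 scramble groups differ in age, source and culture at once, so these cannot be told apart. Microglia genes, endothelial genes and those of other cell types went with this contrast. The microglia list summed to 348 to 647 CPM in CA1 scramble and 36.6 to 84.0 CPM in neurons scramble, with 13 and 6 of its 14 genes at a mean of at least 1 CPM, and Siglech, a microglia marker, was at 0 in every culture library. The endothelium list summed to 175 to 196 CPM in CA1 scramble and 3.11 to 8.29 CPM in neurons scramble. Their part in the class I difference was not tested.

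The 10 genes varied together over the libraries more than most genes did. Across the 6 CA1 libraries Pearson r of log2 CPM was 0.79 to 1.00 over the 45 pairs of genes (median 0.95), and across the 6 culture libraries 0.73 to 1.00 over the 36 pairs without Cd74 (median 0.92). These are correlations over a few libraries that share depth and handling. In CA1, 7 of the 9 other genes reached an r of 0.9 with B2m, as 1.20% of 16021 genes did, and in culture 5 of 8 did, as 7.63% of 16065 genes did. The Cd74 r with B2m was 0.95 in CA1 and 0.08 in culture, where its counts were few. Averaged over the 10 genes, shBrpf1 replicates 1, 2 and 3 of CA1 stood at -0.56, 1.07 and -0.49 log2 units from the mean of the 6 libraries, against 1.01, 0.08 and -1.11 for scramble. In neurons the values were -0.43, 0.73 and -0.83 with shBrpf1 and 0.42, 1.00 and -0.89 with scramble. CA1 thus had 1 high library in each virus group, and the cultures were high in replicate 2 and low in replicate 3 of both.

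**Figure D3:**
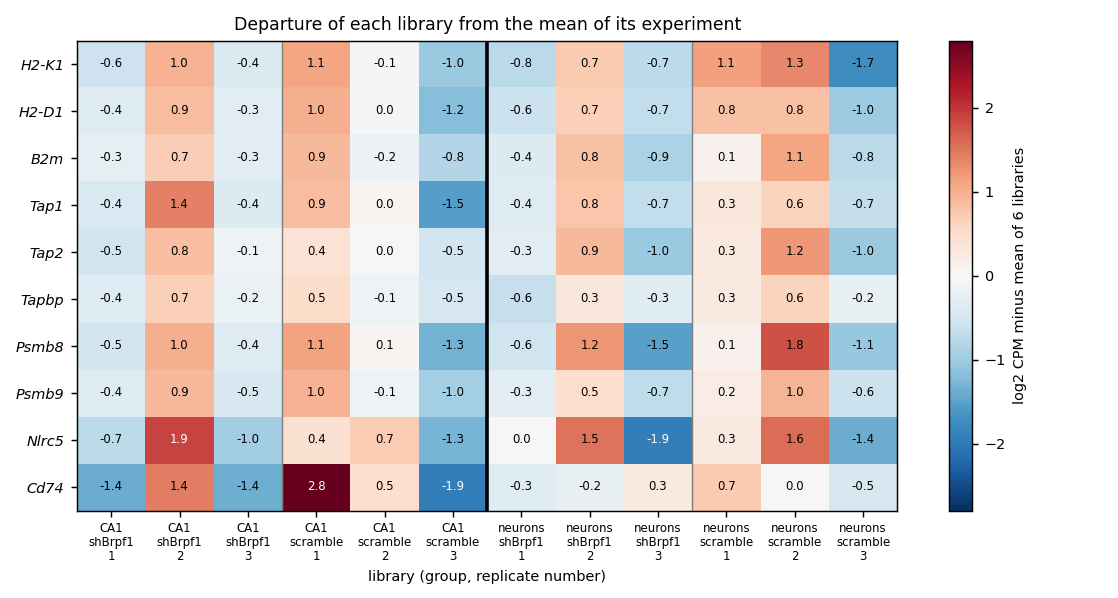
Heat map of log2 CPM minus the mean of the 6 libraries of the experiment, for the 10 genes (down) and the 12 libraries (across), with CA1 left of the thick line and shBrpf1 left of scramble in each experiment. Whole columns share a colour, with CA1 shBrpf1 replicate 2 and CA1 scramble replicate 1 high by 1.07 and 1.01 log2 units on average.

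The 5 genes outside the pathway lists that followed the mean of the 10 most closely over the 12 libraries, after each experiment's mean was removed, were Irgm2 (Pearson r 0.97), Gbp2 (0.95), Igtp (0.95), Unc13d (0.94) and Fam161a (0.94), of 15672 genes compared. Irgm2, Gbp2 and Igtp encode interferon-inducible GTPases, and Unc13d a protein of granule release. Irgm2 had 5.52, 42.8 and 5.19 CPM in CA1 shBrpf1, against 26.3, 17.4 and 2.87 CPM in CA1 scramble. Gbp2 gave 7.33, 43.8 and 4.11 CPM in CA1 shBrpf1, against 28.3, 21.1 and 3.49 CPM in CA1 scramble. Both were again highest in shBrpf1 replicate 2, then in scramble replicate 1. In neurons Irgm2 was at 1.35, 6.38 and 0.634 CPM with shBrpf1 and 2.81, 6.09 and 0.898 CPM with scramble, with the same peak in replicate 2.

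Some other genes moved with the same CA1 libraries, and those named in this paragraph were chosen after their values were seen. H2-Aa, a class II chain, had 0.863, 9.88 and 0.930 CPM in CA1 shBrpf1, against 22.9, 2.52 and 1.22 CPM in CA1 scramble. It was highest where Cd74 was highest. Ttr, the transthyretin gene of choroid plexus, had 2.98, 2901 and 181.5 CPM in CA1 shBrpf1, against 4702.5, 5.31 and 1114 CPM in CA1 scramble. It was highest in the same libraries as B2m, but it also reached 1114 CPM in scramble replicate 3, where B2m was lowest. Without the library of each group that held most Ttr, no gene of the 10 was called, B2m was at 0.15 log2 units and Nlrc5 at -1.03.

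Lists of marker genes gave the same picture of unequal libraries in CA1. The choroid plexus list summed to 36.5 to 3205 CPM in CA1 shBrpf1 and 36.3 to 4909 CPM in CA1 scramble, with all 5 genes at a mean of at least 1 CPM in both. Monocyte and neutrophil genes summed to 1.94, 9.72 and 2.21 CPM in CA1 shBrpf1, against 12.9, 5.94 and 1.37 CPM in CA1 scramble, with 2 and 4 of 6 genes at a mean of at least 1 CPM. T cell genes summed to 3.02, 8.68 and 4.92 CPM in CA1 shBrpf1, against 9.49, 5.11 and 3.02 CPM in CA1 scramble, with 1 of 10 genes at that level in each. These 2 lists were low and were highest in the libraries in which the 10 genes were highest. Dendritic cell genes were not, at 14.6, 11.5 and 11.7 CPM in CA1 shBrpf1, against 8.73, 13.2 and 12.6 CPM in CA1 scramble, with 3 and 2 of 6 genes at a mean of at least 1 CPM. B cell genes summed to 0.518 CPM or less in every CA1 library. The microglia list varied less, at 522, 522 and 397 CPM in CA1 shBrpf1, against 647, 450 and 348 CPM in CA1 scramble, with 13 of 14 genes detected at a mean of at least 1 CPM. Endothelial genes summed to 159 to 189 CPM in CA1 shBrpf1 and 175 to 196 CPM in CA1 scramble. The part of these cells in the levels of the 10 genes was not tested.

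In the cultures Gfap, the filament protein of astrocytes, had 1359.5, 2550 and 116 CPM in neurons shBrpf1, against 2650.5, 3450 and 73.0 CPM in neurons scramble, a gene chosen after its values were seen. It was lowest in replicate 3 of both groups, as were B2m and Psmb8. Of the other astrocyte genes listed, Aqp4 was lowest there too. Aldh1l1, Aldoc, S100b, Gja1 and Slc1a3 were instead lowest in replicate 1 of both groups. Summed astrocyte genes were at 3304, 6101 and 3461 CPM in neurons shBrpf1, against 5423, 7741 and 3504 CPM in neurons scramble. All 7 genes were detected at a mean of at least 1 CPM. The microglia list summed to 33.5, 68.3 and 38.9 CPM in neurons shBrpf1, against 36.6, 84.0 and 38.4 CPM in neurons scramble, with 4 and 6 of 14 genes at a mean of at least 1 CPM. Genes of neurons were lowest in replicate 2, at 5093, 2491 and 4049 CPM in shBrpf1, against 4587, 1762 and 4045 CPM in scramble. Their part in the class I levels was not tested.

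**Figure D4:**
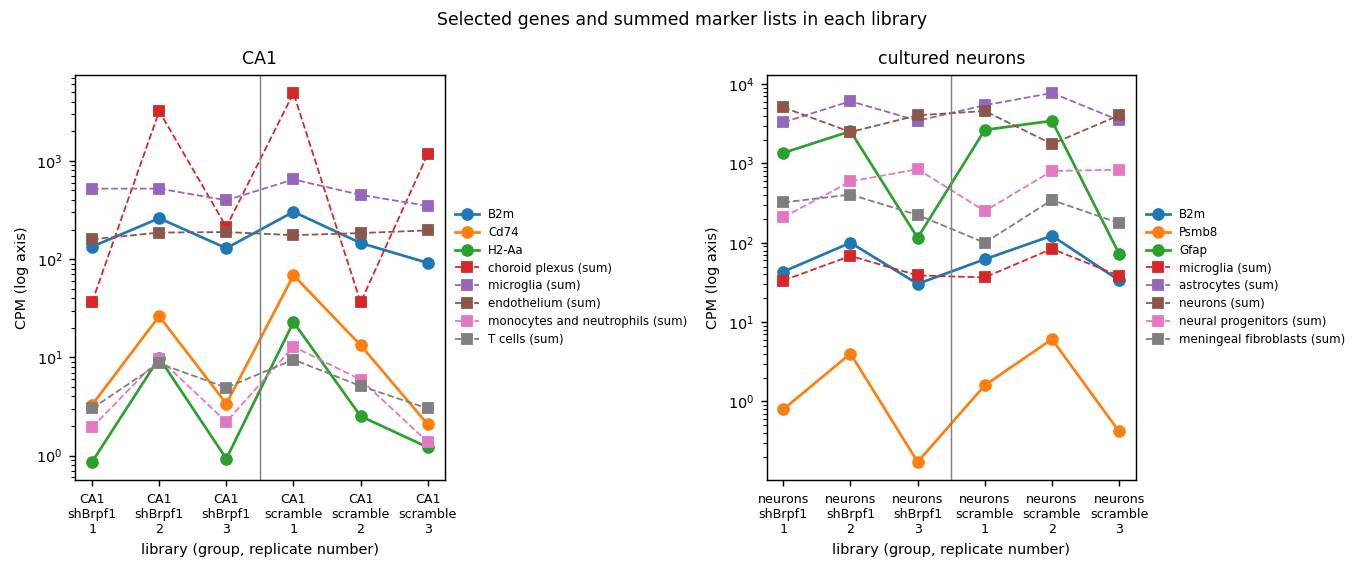
Selected genes (circles, solid lines) and summed marker lists (squares, dashed lines) as CPM on log axes in each library, CA1 left and cultured neurons right, shBrpf1 left of scramble in each panel. The lines join libraries for reading only, and in CA1 the choroid plexus sum reaches 3205 CPM in shBrpf1 replicate 2 and 4909 CPM in scramble replicate 1.

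Other genes of the pathway gave few calls between the viruses. Of 90 listed, 66 were tested in CA1, 36 with a fold change above 0 and 30 below, and 1 was called, against 0.468% of all genes, the only one also under an unadjusted p of 0.05. It was Lilrb4a, an inhibitory receptor of myeloid cells, with 0.604, 1.51 and 0.620 CPM in CA1 shBrpf1, against 0.450, 0.315 and 0.236 CPM in CA1 scramble (1.46, SE 0.56, edgeR adjusted p = 0.934). Its groups did not overlap, at a level near 1 CPM, and neither did those of Ifngr2 and Cd44, 3 of the 66 genes, where 5.28% of all genes tested did not. In neurons 57 were tested, 27 above 0 and 30 below, and edgeR called none, nor was any under an unadjusted p of 0.05.

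Of the other class I heavy chains, 9 were tested in CA1 and 8 had a fold change above 0 (median 0.29), none called. H2-M5 gave 1.17 (SE 0.82), H2-T24 0.59 (SE 0.59), H2-T10 0.31 (SE 0.37) and H2-T22 0.29 (SE 0.28). Against neurons scramble, CA1 scramble had 3 of 10 tested higher and 1, H2-M5, lower (-2.48, SE 0.77, edgeR adjusted p = 0.033), at either threshold, where 10.9% of all genes were higher and 14% lower at the study's. The 3 higher, chosen for their values, were H2-T23 (3.35, SE 0.67, edgeR adjusted p = 0.00355), H2-Q6 (3.64, SE 0.98, adjusted p = 0.0173) and H2-M3 (1.78, SE 0.56, adjusted p = 0.0354). H2-T23 encodes the chain of Qa-1, a ligand of receptors on natural killer cells. It had 11.3, 45.8 and 14.4 CPM in CA1 shBrpf1, against 30.9, 19.9 and 10.3 CPM in CA1 scramble, with the same order of the top libraries as Tap1.

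Among class I-like genes, 4 were tested in CA1 and none was called. Procr, the endothelial protein C receptor, gave -0.86 (SE 0.66), and Fcgrt, the neonatal Fc receptor, -0.24 (SE 0.26). Cd1d1, which presents lipids, was at 0.13 (SE 0.57) in CA1 and was lower in CA1 scramble than in neurons scramble (-2.55, SE 0.78, edgeR adjusted p = 0.0318). In the list of peptide loading and trimming, 6 were tested in CA1 and none was called, with Lnpep, an aminopeptidase of endosomes, at 1.32 (SE 0.85) and the chaperones Uggt1 and Canx at 0.20 (SE 0.21) and 0.12 (SE 0.15). Uggt1 was lower in CA1 scramble than in neurons scramble (-1.02, SE 0.26, edgeR adjusted p = 0.0134). The trimming enzyme gene Erap1, and with it Hfe and Ctsl, lies on chromosome 13 and was at 0 in all CA1 tables, so its call as lower there says nothing of the tissue.

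Proteasome genes showed no call in either knockdown comparison. The inducible partners Psmb10, Psme1 and Psme2 were at -0.13 (SE 0.20), -0.11 (SE 0.28) and -0.23 (SE 0.25) in CA1. They were far steadier than Psmb8 and Psmb9, with 21.5, 24.8 and 31.1 CPM of Psmb10 in CA1 shBrpf1, against 33.7, 22.1 and 29.5 CPM in CA1 scramble. Psmb10 was higher in CA1 scramble than in neurons scramble (1.09, SE 0.24, edgeR adjusted p = 0.00549). The constitutive counterparts Psmb5, Psmb6 and Psmb7 and the activator subunit Psme3 were all below 0 in CA1 (median -0.34), at -0.40 (SE 0.24), -0.37 (SE 0.22), -0.32 (SE 0.20) and -0.04 (SE 0.15), with none passing.

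Of the factors that act at MHC promoters, 5 of 8 were above 0 in CA1 and none was called. Creb1, which binds TGACG, gave 0.39 (SE 0.24), Rfx5 0.30 (SE 0.23) and Ciita, the class II transactivator, 0.39 (SE 0.57). Nfyc, a subunit of the CCAAT-binding factor, gave -0.20 (SE 0.15). Ciita had 1.77, 4.80 and 1.09 CPM in CA1 shBrpf1, against 2.16, 2.44 and 1.34 CPM in CA1 scramble, highest where Nlrc5 was highest.

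All 17 interferon receptor and signalling genes listed were tested in CA1, 12 of them above 0 (median 0.02), and none was called. Irf7, a factor induced by interferon, had 8.54, 38.4 and 7.79 CPM in CA1 shBrpf1, against 11.0, 8.85 and 1.22 CPM in CA1 scramble (1.40, SE 0.90). Stat2 and Irf9, which carry the type I interferon signal, gave 0.55 (SE 0.39) and 0.56 (SE 0.43). Ifngr2, a chain of the interferon-gamma receptor, gave -0.35 (SE 0.16, edgeR adjusted p = 0.934). Of the interferon ligands listed none reached the filter in any comparison. Irf7 was higher in CA1 scramble than in neurons scramble (3.08, SE 0.94, edgeR adjusted p = 0.0312).

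Of the class II list, which also holds ligands and receptors of Cd74, 11 genes were tested in CA1, 8 of them below 0 (median -0.33), and none was called. H2-Eb1 had 1.29, 7.40 and 2.05 CPM in CA1 shBrpf1, against 22.4, 2.60 and 1.57 CPM in CA1 scramble (-1.26, SE 1.09), with its peak in scramble replicate 1 as for Cd74. H2-DMa, which edits class II peptides, gave -0.33 (SE 0.29), Mif, a ligand of Cd74, -0.32 (SE 0.25), and Cd44, its co-receptor, 0.48 (SE 0.31). In CA1 scramble against neurons scramble H2-Eb1 was higher (4.64, SE 1.15, edgeR adjusted p = 0.0114) and Cd44 lower (-3.53, SE 0.43, adjusted p = 0.000108). The class I co-receptor genes Cd8a and Cd8b1, markers of T cells, were higher in CA1 scramble as well (4.03, SE 1.00, and 5.50, SE 1.60), at 1.39 CPM or less for Cd8a in every library. Over all 70 other genes of the lists tested in that contrast, 14 were higher and 9 lower at the study's threshold, against 10.9% and 14% of all genes. Erap1, Hfe and Ctsl were among the 9, and without the genes of chromosome 13 the share of all genes called lower was 11%. In the test of the difference between experiments edgeR called none of the 70, and none was under an unadjusted p of 0.05.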

How the data were processed

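Each of 12 libraries had a table of whole-number counts per NCBI gene ID, deposited by the authors without normalization, together with a gene length that is a plain number of bases and the same in every table. Per the study's methods, adapters and low-quality fragments were removed, paired reads were aligned with STAR to the mouse genome and known genes were counted with StringTie. The labels give mm9 as the build and name FastQC, StringTie and DESeq2. Versions, strand setting and treatment of reads with several matches are not given in the sources used here. No column of another series was present.

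IDs were named by RefSeq (25275 of 27179), and the 1904 without a name held 2.46% of counts. The members and the gene lists were chosen with earlier results of these data known. A gene entered a fit if 3 or more of its libraries held 10 or more counts, and was tested with edgeR 4.0.16 (R 4.3.3) by the quasi-likelihood test with TMM scaling and robust dispersions, 1 mean per group, two-sided, with p adjusted by Benjamini and Hochberg over all genes tested. Knockdown fits held the 6 libraries of an experiment, other contrasts all 12. The test was tried first on simulated counts with the same dispersion for every gene and no replicate pairs. That trial does not speak to genes that vary as much as these. CPM and FPKM were computed from TMM-scaled library sizes and the deposited lengths. For log2 CPM, 0.5 CPM was added to each value, which shrinks differences and spreads of genes at low levels.

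The text names the 10 genes, Brpf1, up to 4 genes of each pathway list with the lowest p in CA1, and the 5 genes closest in pattern to the mean of the 10. Replicates of a group differed by far more than counting noise (chi-square per degree of freedom 43.0 to 269). Replicate numbers, taken from the titles, were treated as pairs in neurons, where same-numbered libraries deviated together (0.58, 0.89, 0.85). Other pairings gave -0.73 to -0.22. Deviations from a group mean balance out within the group, so these negative values are no separate support for the pairs. Alternatives were DESeq2 size factors, DESeq2 1.42.0, limma-voom (limma 3.58.1), no filter, a filter of 50 counts, a replicate block, a joint fit and each library left out. Fits without chromosome 13, and CA1 without the libraries with most Ttr, were added after seeing the data. Plots used matplotlib 3.10.9 (Python 3.11.15).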

Additional observations from a re-analysis of the deposited data

How the results depend on the processing

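The count of called genes among the 10 stayed at 0 in both knockdown comparisons and in the test of their difference under every alternative that kept all libraries. Leaving out single libraries gave 0 to 1 in CA1 (1 without shBrpf1 replicate 2, Cd74), 0 to 1 in neurons (1 without scramble replicate 3, H2-K1) and 0 for the difference. In CA1 scramble against neurons scramble, where 4 were called, the count was 1 to 5 without single libraries and 2 with a filter of 50 counts in 3 libraries, which lost B2m and Psmb9 at p just above the threshold. The replicate block changed no call and added B2m, Tapbp and Psmb8 in neurons to those with an unadjusted edgeR p under 0.05. It turned the sign in CA1 for H2-K1 (0.0386), B2m (0.0724) and Psmb8 (0.148), and for Cd74 in the difference between experiments (0.0496). No paired fit was made of CA1 scramble against neurons scramble, whose numbers mark different sources.

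Other signs turned too. H2-D1 in CA1 was at -0.0177 with DESeq2 size factors, -0.0183 with DESeq2, -0.0195 in the joint fit and -0.0319 with no filter, where Psmb9 was at -0.00907. With limma-voom B2m (0.0540) and Psmb8 (0.146) in CA1 and Tap2 in CA1 scramble against neurons scramble (0.0129) turned. Without the libraries with most Ttr, B2m (0.147), Psmb8 (0.0109), Tap2 (-0.0881) and Nlrc5 (-1.03) turned. The cause was not tested.

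Leaving out single libraries turned the sign of each of the 10 genes in CA1. The log2 fold changes then ran from -0.46 to 0.56 for B2m, -0.76 to 0.64 for H2-K1, -0.54 to 0.69 for H2-D1, -0.53 to 1.07 for Tap1, -0.36 to 0.44 for Tap2, -0.30 to 0.42 for Tapbp, -0.79 to 0.73 for Psmb8, -0.67 to 0.77 for Psmb9, -1.19 to 1.05 for Nlrc5 and -3.08 to 0.52 for Cd74. In neurons the ranges that crossed 0 were -1.01 to 0.30 for B2m, -0.76 to 0.17 for Tap1, -1.14 to 0.34 for Tap2, -2.46 to 0.74 for Psmb8, -1.29 to 0.0888 for Psmb9 and -1.53 to 0.98 for Nlrc5. In CA1 scramble against neurons scramble they were -0.95 to 0.16 for Tap1, -0.47 to 0.65 for Tap2 and -0.25 to 1.37 for Nlrc5. In the difference they were -0.33 to 0.95 for B2m, -0.0503 to 1.18 for H2-D1, -0.39 to 1.21 for Tap1, -0.16 to 1.31 for Tap2, -0.79 to 2.37 for Psmb8, -0.0798 to 1.35 for Psmb9, -1.05 to 2.09 for Nlrc5 and -2.43 to 1.16 for Cd74. Counts were few in culture replicate 3, at 3 (shBrpf1) and 7 (scramble) for Psmb8, 8 and 9 for Psmb9 and 5 and 11 for Nlrc5, and Cd74 was too low to test in culture.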
